A study of Homo sapiens with 3 samples.

Results

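The comparison described here is between floating spheres collected after 5 days of transforming growth factor beta 1 (TGF-beta1) and the culture after 3 days of TGF-beta1, in the osteosarcoma cell line MNNG/HOS. It used 2 of the 3 arrays of the study, chosen by their labels, and all 45033 probe sets of the array, of which 26167 have no name here and the rest gave values for 17185 genes. MNNG/HOS is an established human line, a chemically transformed derivative of the HOS osteosarcoma line. All cultures grew without serum, and all started from the adherent cells that were left after spontaneously formed spheres had been taken away. One culture received 4 ng/mL TGF-beta1 for 3 days, another received 4 ng/mL for 5 days and only its suspended spheres were collected, and an untreated adherent culture was kept for 5 days. The labels do not say whether adherent cells, floating cells or both were taken at day 3, so days of treatment and the collected fraction may differ together and cannot be told apart. Each culture was measured on 1 array, so no difference below has a test, an error or a p-value. The numbers describe these 2 arrays.

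TGF-beta1 binds a pair of serine/threonine kinase receptors, which phosphorylate SMAD2 and SMAD3, and these enter the nucleus with SMAD4 to change transcription. In mesenchymal cells the pathway is known for inducing matrix genes and for switching on its own feedback inhibitors, while the related bone morphogenetic proteins (BMPs) signal through SMAD1, SMAD5 and SMAD9 to the ID genes. Tumour cells that grow as detached spheres lose their contact with the dish and gain contacts with each other, and the inside of a sphere can receive less oxygen than a flat layer.

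For each gene the log2 intensities of its probe sets were averaged, and the day 3 value was subtracted from that of the spheres. Genes were called higher or lower at 2-fold when at least 1 of the 2 arrays reached an intensity of 685, the median of all gene values, which left 9068 genes. Spheres were at least 2-fold above day 3 for 403 of them (4.44%) and at least 2-fold below for 455 (5.02%), together 9.46%. A difference of 4-fold or more was seen for 50 higher and 72 lower genes, and of 8-fold or more for 16 and 18. The middle of the distribution lay near 0, with a median log2 difference of 0.01 and 50.8% of the 9068 genes above 0. Just inside the 2-fold limit, at log2 values from 1 to 1.1, lay 80 higher and 87 lower genes, and just outside it, from 0.9 to 1, lay 110 and 119. Over all 45033 probe sets, 2961 (6.58%) were at least 2-fold higher and 1958 (4.35%) lower, and among the 26167 probe sets without a name here 1830 (6.99%) and 1066 (4.07%).

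Large folds were tied to level. All 17185 genes were ranked by mean level and cut into 4 equal groups. In the dimmest group 4.45% stood at least 2-fold higher and 1.96% lower, and in the next 12.2% and 9.01%. In the third group the shares were 5.96% and 6.77%, and in the brightest 0.535% and 1.14%. For 180 of the 403 higher genes and 219 of the 455 lower genes both arrays reached an intensity of 685, and these folds rest least on background. A fold is marked as low-intensity below where 1 of its values was under 63.4, the lower quartile of all gene values. Of 133 genes with several probe sets and a mean difference past 2-fold, all probe sets pointed the same way in 131. Pearson's r between the 2 arrays was 0.979 across all probe sets, and the medians were 437 at day 3 and 445 in the spheres.

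**Figure D1:**
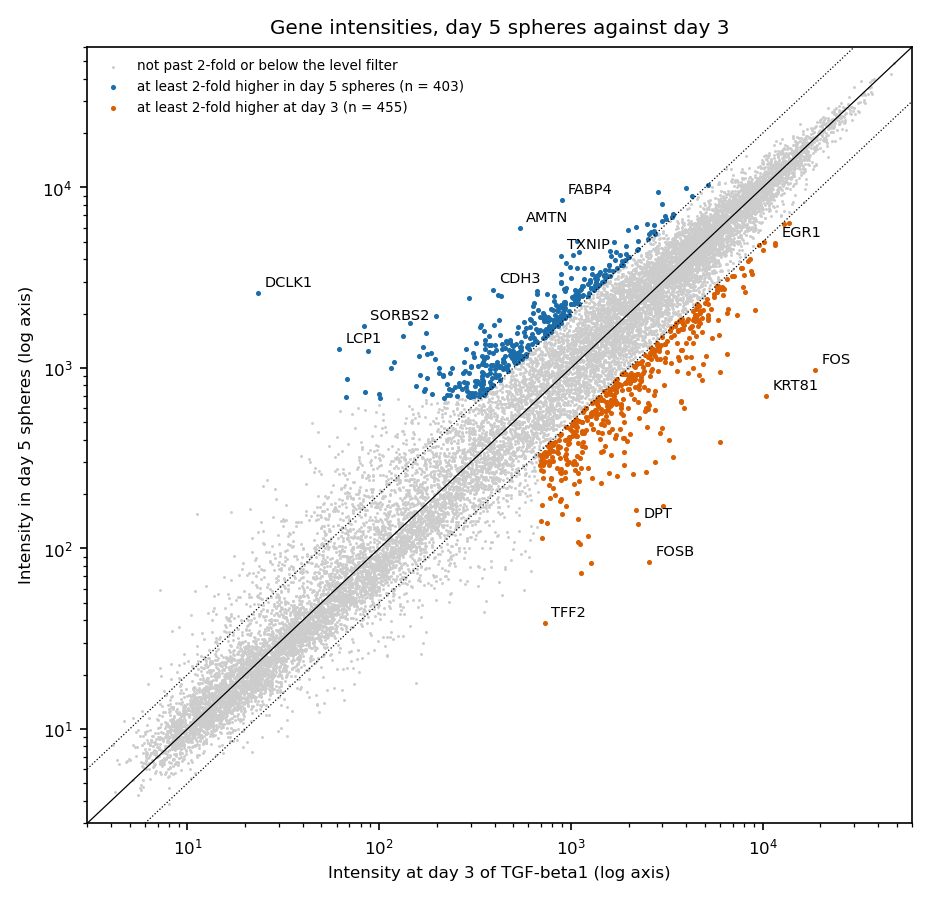
Each point is 1 of 17185 genes, with its intensity at day 3 of TGF-beta1 on the horizontal axis and in day 5 spheres on the vertical axis, both logarithmic, 1 array each. Blue points are the 403 genes past 2-fold toward the spheres and orange points the 455 genes at least 2-fold higher at day 3, grey points did not pass 2-fold or the level filter, the solid line marks equal values and the dotted lines 2-fold. DCLK1 stands alone on the left, and FOSB and FOS have the largest differences toward day 3.

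Both cultures carried the mesenchymal genes of the line, and only part of the bone programme was bright. The vimentin gene VIM had an intensity of 16930.4 at day 3 and 15362 in the spheres. The bone transcription factor gene RUNX2 read 4818 and 3246, and the mesenchymal cadherin gene CDH11 read 3602 and 2657. ALPL (alkaline phosphatase) and SP7 (osterix) were not past the level filter, at 69.6 and 31.3 at day 3 and 76.4 and 47.0 in the spheres. Of 5 blood markers only CD68, a lysosomal glycoprotein gene that many cell types also express, passed the filter, at 1001 and 2248, and PTPRC, which defines leukocytes, read 25.9 and 18.5. Of 5 endothelial markers only PECAM1 passed. Of 4 epithelial markers 3 passed the filter. The keratin genes KRT8 and KRT18 were bright on both arrays and EPCAM read 1435 and 1320, while the epithelial cadherin gene CDH1 read 8.59 and 9.28. Among 4 skeletal muscle markers only CKM passed, at 2260 and 1606, and among 4 neural markers only TUBB3, at 15618 and 15663.

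The gene farthest apart on the side of the spheres was DCLK1, which encodes a microtubule-associated kinase used as a marker of tuft cells and of some tumour stem cells. Its intensity was 13.4 in untreated cells, 23.4 at day 3 and 2588 in the spheres, a 110.4-fold difference. Both low values lie near the floor of the array. Its log2 difference was 6.79, and 4.92 after adding 64 to both intensities. LCP1, the gene of the actin-bundling protein L-plastin, was 20.7-fold higher, also from a low-intensity value of 61.8 at day 3. SORBS2, an adaptor gene of the actin cytoskeleton, was 20.6-fold higher, reading 83.2 and then 1713. The phosphatase gene CPPED1 was 14.3-fold higher and EDNRA, a receptor for endothelin, 12.8-fold. For SORBS2, CPPED1 and LCP1 the untreated value lay between the other arrays, and for EDNRA it lay near day 3 at 79.4.

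AMTN encodes amelotin, a protein of the maturing enamel surface. It read 101 in untreated cells, 543 at day 3 and 5960.4 in the spheres, 11.0-fold higher than at day 3. ODAPH, another gene needed for enamel mineralisation, was 11.2-fold higher. Both genes were highest in the spheres and lowest in untreated cells. The other enamel genes AMBN, AMELX, ENAM and ODAM, looked up after these values were seen, were dim on both arrays and did not pass 2-fold. The co-chaperone gene DNAJC12 was 12.2-fold higher, PAPPA, a protease that cleaves insulin-like growth factor binding proteins, 10.2-fold, SYNDIG1 9.70-fold and BAALC 8.63-fold. RBM24, an RNA-binding protein gene of muscle, was 9.01-fold higher, SLCO2A1, the prostaglandin transporter gene, 8.94-fold, and the zinc finger transcription factor gene ZIC5 8.75-fold. In RBM24 the sphere value of 1078 was close to the untreated value of 1132, against 120 at day 3.

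Among genes that were bright on both arrays, FABP4, a fatty acid carrier, had the largest difference toward the spheres. It read 2284 in untreated cells, 894 at day 3 and 8476 in the spheres, which is 9.48-fold. TXNIP, a thioredoxin-interacting protein that limits glucose uptake, read 887 at day 3 and 4189.6 in the spheres, 4.72-fold. FLRT2, a transmembrane gene of the fibronectin leucine-rich family, was 4.67-fold higher and TCF15, a basic helix-loop-helix factor of the paraxial mesoderm, 4.11-fold. DKK1, a secreted Wnt antagonist, read 6146 in untreated cells, 1108 at day 3 and 4369.6 in the spheres. G0S2, an inhibitor of triglyceride lipase, was 3.70-fold higher, and TBC1D19 3.42-fold. For DKK1 and G0S2 the untreated array was the highest of the 3, and day 3 was the lowest. CGB8 and LHB, which encode beta subunits of chorionic gonadotropin and luteinising hormone, were 3.69-fold and 3.39-fold higher, and the genes of that cluster are nearly identical and can share signal.

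The lowest difference was that of FOSB. FOSB, an AP-1 subunit, was 30.3-fold lower and FOS 19.2-fold lower in the spheres. KRT83 and KRT81, type II keratins of hair, read 3017 and 10442 at day 3 and 171 and 695 in the spheres, 17.6-fold and 15.01-fold lower. These keratins are close relatives and may share signal, and the other type II hair keratins measured, KRT82, KRT84 and KRT85, were dim and did not pass 2-fold. DPT, the gene of the matrix protein dermatopontin, read 28.2 in untreated cells, 2233 at day 3 and 136 in the spheres. RARRES2, which encodes the chemoattractant chemerin, read 505, 5969.8 and 390. Both genes were high on the day 3 array alone. TFF2, a secreted trefoil peptide gene, was 19.0-fold lower with a low-intensity value of 38.5 in the spheres.

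Some of these genes were nearly as bright in untreated cells as at day 3, and others were not. THRB, a thyroid hormone receptor gene, read 975 in untreated cells, 1229.7 at day 3 and 117 in the spheres. LYPD6B read 874, 1094 and 108 in the same order. In both, the spheres alone were low. PDZD2 was 15.5-fold lower, CGNL1, a junction protein gene, 15.2-fold, TMTC1 10.5-fold and SERPINF2, the gene of the plasmin inhibitor alpha-2-antiplasmin, 9.26-fold. PDZD2, CGNL1 and SERPINF2 were high at day 3 alone, and read 141, 178 and 227 in untreated cells. With both arrays bright, the lipid-modifying enzyme gene PLAAT3 was 6.33-fold lower, OLFML2A 5.62-fold, the thrombin receptor gene F2RL3 5.45-fold, the retinol dehydrogenase gene RDH5 4.66-fold and the anion exchanger gene SLC4A2 4.36-fold. EPAS1 encodes the hypoxia-inducible factor HIF-2 alpha. It read 3928 in untreated cells, 4072 at day 3 and 935 in the spheres, 4.35-fold lower.

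**Figure D2:**
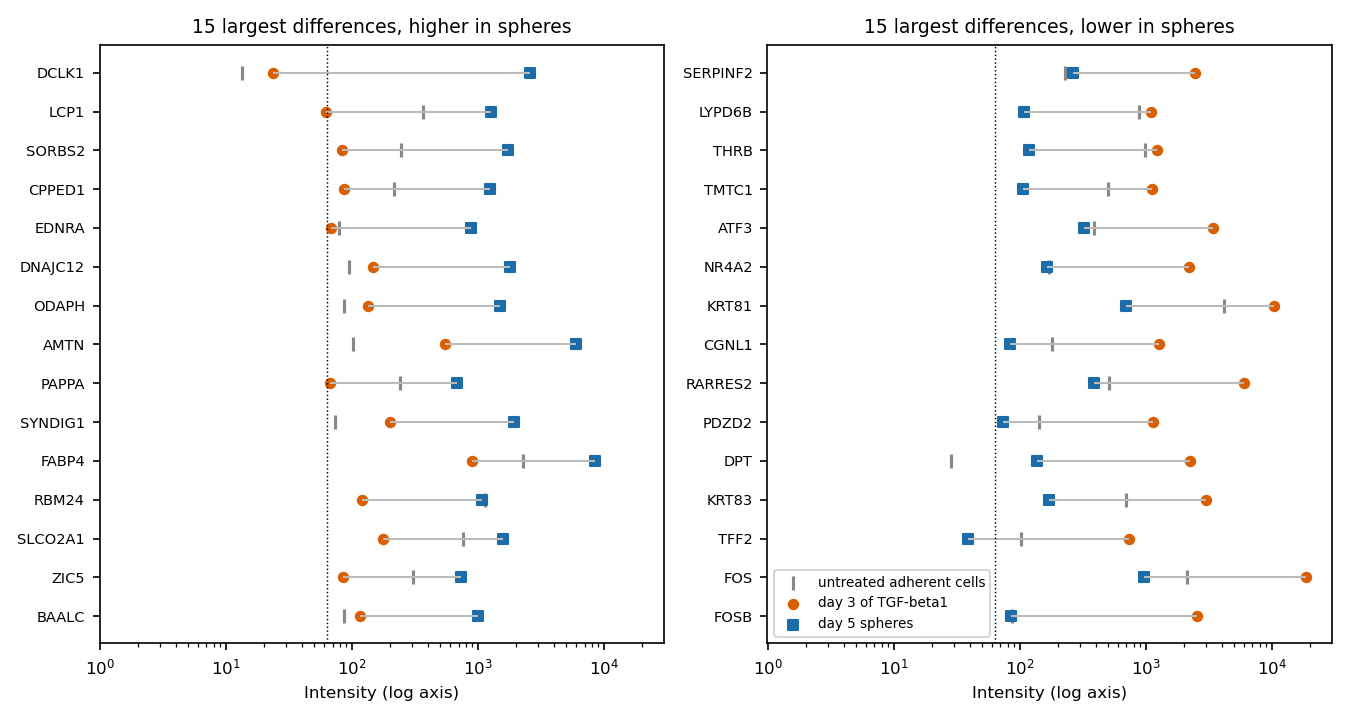
Intensities (log axis) of the 15 genes with the largest differences in each direction, 1 array per symbol: orange circles for day 3 of TGF-beta1, blue squares for day 5 spheres, grey ticks for untreated adherent cells, and a dotted line at 63.4, the lower quartile of all gene values. DCLK1 is the widest gap, and the FOS, FOSB, NR4A2 and ATF3 values of the spheres sit at or below the untreated ticks.

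The genes were also read in 43 lists of pathways and cell types. Counts in lists cover all measured members, without the level filter, and are read against all 17185 genes, of which 994 (5.78%) stood 2-fold or more above day 3 and 811 (4.72%) below, with a median of -0.04. The immediate early genes had the lowest list median, at -0.86, and the circadian clock genes the highest, at 0.58. The immediate early median is the value of NR4A3, a low-intensity gene (43.9 and 24.2) whose 2 probe sets differed in direction. With the brightest probe set per gene this median shifted by 0.16, the most of any list. BMP genes were divided, with 6 of 22 higher and 5 of 22 lower. Members named beyond the 5 with the largest differences of a list described in detail, or the 2 of any other list, were chosen after their values were seen. In 10 lists, among them glycolytic enzymes, oxidative phosphorylation, cholesterol synthesis, mitosis, osteoblast, housekeeping and ribosomal protein genes, no member passed 2-fold in either direction.

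**Figure D3:**
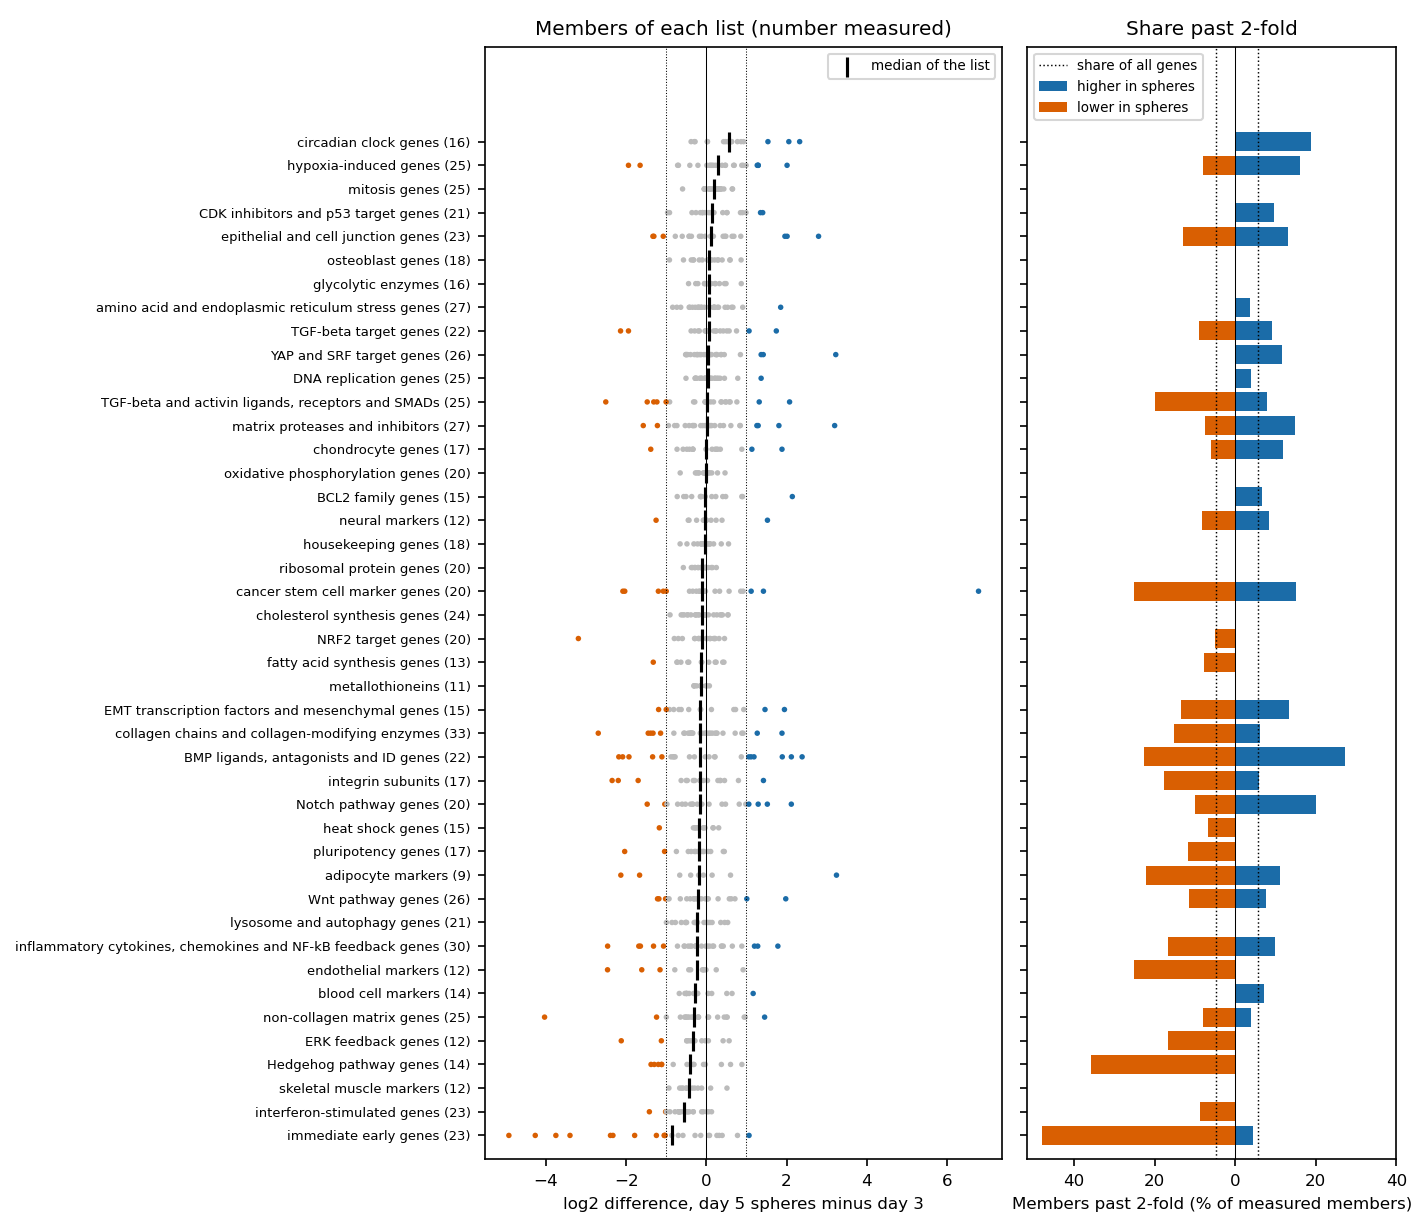
Left, log2 differences (day 5 spheres minus day 3) of every measured member of 43 gene lists, with the list median as a black tick, dotted lines at 2-fold and colours for members past 2-fold. Right, the percentage of measured members at least 2-fold higher (blue) or lower (orange) in the spheres, with dotted lines at the shares of all genes (5.78% and 4.72%). Immediate early and Hedgehog genes have the longest orange bars, at 11 of 23 and 5 of 14 members.

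Immediate early genes respond to a stimulus without new protein synthesis, through factors already in the cell. Of 23 measured members, 11 read 2-fold or more below day 3 in the spheres (10 with the level filter), and 1 read 2-fold or more above. FOS, the partner of JUN in AP-1, read 2118 in untreated cells, 18729.9 at day 3 and 974 in the spheres. FOSB read 86.8, 2556 and 84.2 on the same arrays. NR4A2, an orphan nuclear receptor, read 171, 2191 and 163. In these genes day 3 alone was high and the other arrays lay close together or, for FOS, lower still in the spheres. ATF3, a stress-induced repressor, was 10.6-fold lower and the nuclear receptor NR4A1 5.24-fold lower. EGR2, a zinc finger factor, was 3.45-fold lower, and its sphere value of 1148 stayed above the untreated 279. EGR1 was 2.37-fold lower, from 11636 at day 3 to 4909. KLF2 had another pattern, with 2014 in untreated cells, 1971 at day 3 and 392 in the spheres, so that the spheres alone were low. JUND, KLF4 and ZFP36, an RNA-binding protein that destabilises cytokine transcripts, were 2.07-fold, 2.06-fold and 2.04-fold lower. These 3 were short of 2-fold after adding 64 to both intensities. JUNB, by contrast, read 4885 and 5087, and SRF 9763 and 10323. MAFF was the member that was higher, 2.09-fold, with a log2 difference of 0.95 after the same addition, and FOSL1 differed by 0.78 in log2.

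The promoter windows of RefSeq (GRCh38.p14, 250 bases before to 50 after a transcription start) were searched on both strands for the binding letters known from immediate early genes, and 19 of the 23 genes had a window. The CArG box of serum response factor was found in the windows of 3 of these 19 genes (15.8%), against 1.60% of all 27305 genes with a window, and TGACGTCA, the cyclic AMP response element, in 2 of 19 (10.5%) against 2.25%. The 27305 genes were not limited to the genes measured here, so they are not a matched background. The genes with a match were EGR1, EGR2 and SRF, and JUND and MAFF, so the matches fall on members that were lower and on members that were not. Neither was found in the windows of FOS and FOSB. These windows begin 250 bases before a start, so letters farther upstream were not searched. The 3 windows below belong to members that were at least 2-fold lower. They run 5′ to 3′ on the gene's strand, with CArG boxes or the cyclic AMP response element in capitals, and EGR2 is shown at the start that holds a match.
EGR1 chr5:138465229-138465528, plus strand: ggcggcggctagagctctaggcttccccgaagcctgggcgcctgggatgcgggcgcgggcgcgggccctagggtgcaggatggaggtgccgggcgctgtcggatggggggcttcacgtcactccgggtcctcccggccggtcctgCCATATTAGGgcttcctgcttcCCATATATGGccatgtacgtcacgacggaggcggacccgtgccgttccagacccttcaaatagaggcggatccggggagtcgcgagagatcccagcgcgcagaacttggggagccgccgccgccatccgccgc
EGR2 chr10:62816317-62816616, minus strand: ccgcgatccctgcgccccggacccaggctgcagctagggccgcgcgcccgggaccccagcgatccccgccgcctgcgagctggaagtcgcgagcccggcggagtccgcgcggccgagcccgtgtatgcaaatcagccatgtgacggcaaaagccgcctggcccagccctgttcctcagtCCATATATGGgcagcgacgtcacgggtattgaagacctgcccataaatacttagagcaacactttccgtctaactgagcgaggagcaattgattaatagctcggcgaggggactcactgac
JUND chr19:18281573-18281872, minus strand: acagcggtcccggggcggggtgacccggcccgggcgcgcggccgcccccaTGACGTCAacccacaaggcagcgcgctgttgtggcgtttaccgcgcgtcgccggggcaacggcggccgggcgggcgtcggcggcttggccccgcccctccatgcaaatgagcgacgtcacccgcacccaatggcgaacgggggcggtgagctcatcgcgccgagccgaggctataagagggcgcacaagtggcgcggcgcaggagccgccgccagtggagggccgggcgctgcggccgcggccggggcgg

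**Figure D4:**
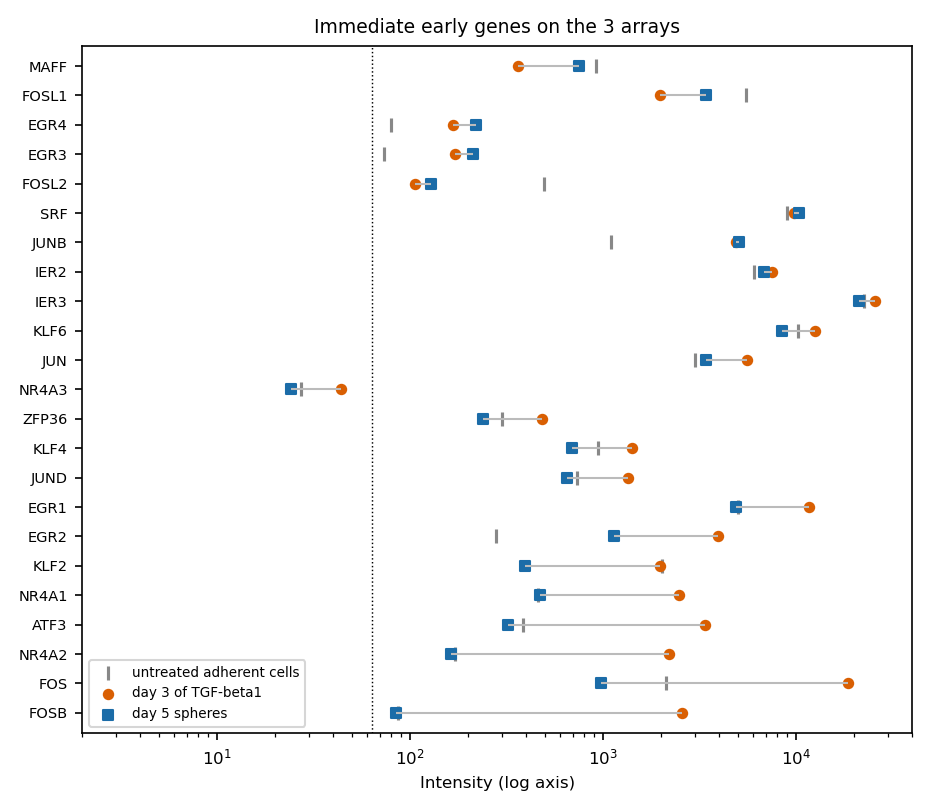
Intensities (log axis) of 23 immediate early genes, ordered by their difference, with orange circles for day 3 of TGF-beta1, blue squares for day 5 spheres and grey ticks for untreated cells, 1 array each, and a dotted line at 63.4. From FOSB to ZFP36 the day 3 circles lie to the right of the squares by at least 2-fold, and the squares of FOSB, NR4A2, NR4A1 and EGR1 overlie the untreated ticks.

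Feedback genes of ERK signalling showed 2 of 12 members lower and 0 higher, with a median of -0.33. DUSP1, a phosphatase of MAP kinases, read 3575 in untreated cells, 9081 at day 3 and 2087 in the spheres, 4.35-fold lower than at day 3. SPRY1 was 2.18-fold lower, but fell just short of 2-fold after adding 64 to both intensities, with a log2 difference of -0.99. Inflammatory genes were divided. Of 30 measured, 5 were 2-fold or more lower (4 with the level filter) and 3 were higher (0 with it). PTGS2, the inducible cyclooxygenase, was 5.51-fold lower and CSF2, a growth factor of myeloid cells, 3.12-fold. The NF-kB feedback genes TNFAIP3 and NFKBIA were 2.49-fold and 2.09-fold lower, while BIRC3, another NF-kB target, was 3.44-fold higher from a low-intensity value of 51.8. CCL5 was 3.21-fold lower with a low-intensity value in the spheres.

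Interferon-stimulated genes, which encode antiviral proteins, were lower by small steps. Of 23 measured members 20 were below 0, 2 were at least 2-fold lower and 0 higher, and the median was -0.57 against -0.04 for all genes. OASL, an antiviral oligoadenylate synthetase-like protein, read 400 in untreated cells, 2606 at day 3 and 1289 in the spheres. XAF1 was 2.68-fold lower and not past the level filter. Neither reached 2-fold after adding 64 to both intensities.

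Genes known to be induced by low oxygen mostly had positive differences of small size, and PDK1 led them. Of 25 members, 19 were above 0, 4 were at least 2-fold higher, all past the level filter, and 2 were at least 2-fold lower, with a median of 0.28. PDK1, which holds pyruvate back from the mitochondria, read 1107 in untreated cells, 663 at day 3 and 2675 in the spheres, 4.04-fold higher than at day 3. KDM3A, a histone demethylase, read 534, 480 and 1176. In both genes the spheres alone were high. STC2, a secreted glycoprotein, and LOX, the collagen crosslinking lysyl oxidase, were 2.45-fold and 2.41-fold higher. For STC2 and LOX untreated cells were higher than the spheres, at 4584 and 1418. DDIT4, an inhibitor of mTOR signalling, read 5433 and 10018, and NDRG1 5292 and 8575, both short of 2-fold. ANGPTL4, a lipoprotein lipase inhibitor that TGF-beta also induces, was 3.84-fold lower, and PFKFB4, a regulator of glycolytic flux, 3.14-fold lower. VEGFA read 4224 and 4463 and the glucose transporter gene SLC2A1 12929.9 and 14231. None of 16 glycolytic enzymes passed 2-fold, and the largest difference among them was that of the hexokinase gene HK2, at 0.87 in log2. All 16 passed the level filter, and 2-fold differences were few among the brightest genes, as given above.

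ACGTG, the core of the hypoxia response element, was found on either strand in the windows of 13 of the 21 list members that had one (61.9%). The share was 24.9% of all 27305 genes with a window, which were not limited to the genes measured here. The letters are few, and 8 of 19 immediate early genes (42.1%) also held them. List members with a match included ANGPTL4, INSIG2 and EGLN1, with log2 differences of -1.94, -0.41 and -0.21. The matches thus fall on members that were higher and on members that were not. The windows of PDK1 and LOX are shown because both passed 2-fold toward the spheres, with the core in capitals on whichever strand it lies and at the start that holds most matches.
PDK1 chr2:172555840-172556139, plus strand: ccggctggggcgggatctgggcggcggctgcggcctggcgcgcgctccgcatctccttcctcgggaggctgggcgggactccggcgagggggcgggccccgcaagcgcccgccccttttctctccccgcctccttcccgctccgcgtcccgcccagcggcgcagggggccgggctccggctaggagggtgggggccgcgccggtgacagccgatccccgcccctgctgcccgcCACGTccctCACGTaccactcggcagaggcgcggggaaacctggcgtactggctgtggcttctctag
LOX chr5:122078210-122078509, minus strand: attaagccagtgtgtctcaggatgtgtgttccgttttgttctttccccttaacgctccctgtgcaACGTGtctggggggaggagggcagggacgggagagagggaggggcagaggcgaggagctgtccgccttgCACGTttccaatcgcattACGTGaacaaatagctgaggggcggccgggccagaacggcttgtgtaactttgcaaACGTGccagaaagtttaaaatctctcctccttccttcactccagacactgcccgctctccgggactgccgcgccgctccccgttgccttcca

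Circadian clock genes form a feedback loop of activators (CLOCK, BMAL1) and repressors (PER, CRY and REV-ERB proteins), and 13 of 16 were above 0. Their median of 0.58 was the highest of the 43 lists. The 3 members past 2-fold were all higher, and 1 of them passed the level filter. NR1D2, which encodes REV-ERB beta, read 782 in untreated cells, 239 at day 3 and 993 in the spheres, 4.16-fold higher. BHLHE41, a repressor of CLOCK, read 84.3, 95.4 and 478, 5.02-fold higher but not past the filter. RORA, an activator of BMAL1, was 2.90-fold higher and was named after its values were seen. PER2 differed by 0.93 in log2, and BHLHE40, the TGF-beta-induced relative of BHLHE41, went the other way, from 13839.8 at day 3 to 10634. The labels give no time of day for the collections.

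The receptor genes TGFBR1 and TGFBR2 read nearly alike on both arrays, while several ligand genes lay 2-fold or more apart. TGFBR1 read 1281 and 1257 and TGFBR2 6052 and 5967. TGFB1 itself read 11309.6 at day 3 and 9074 in the spheres. Of 25 ligands, receptors and SMADs, 5 were at least 2-fold lower and 2 higher. GDF15, a stress-induced ligand of the family, read 2181 in untreated cells, 3753 at day 3 and 660 in the spheres, 5.68-fold lower. TGFBR3, a co-receptor that presents ligand, was 2.78-fold lower and LTBP1, which tethers latent TGF-beta to the matrix, 2.48-fold. The ligand genes TGFB3 and GDF11 were also lower, 2.35-fold and 2.005-fold, TGFB3 not past the filter. INHBA, the subunit gene of activin A, read 3188 in untreated cells, 3979.5 at day 3 and 9925 in the spheres, 2.49-fold higher. TGFB2 was 4.22-fold higher from a low-intensity value of 25.02, or 0.93 in log2 after adding 64 to both intensities.

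Known TGF-beta targets lay on both sides of 0. Of 22, 2 were higher and 2 lower, which is 18.2% against 10.5% of all genes, and the median was 0.06. SPHK1, a sphingosine kinase, read 2278 in untreated cells, 2833 at day 3 and 9495 in the spheres, 3.35-fold higher. NEDD9, a scaffold of focal adhesions, was 2.09-fold higher. The lower members were ANGPTL4, described above, and TGM2. TGM2, which crosslinks proteins, was 4.40-fold lower, with 2346 in untreated cells, 1224 at day 3 and 278 in the spheres. The inhibitory SMAD7 read 2771 at day 3 and 2264 in the spheres.

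Members of the BMP list lay apart in both directions. Of 22 ligands, receptors, SMADs, antagonists and ID genes, 6 were at least 2-fold higher and 5 lower, 11 of 22 against 10.5% of all genes in either direction. SMAD6, the inhibitory SMAD that BMPs induce, read 1111 in untreated cells, 1038 at day 3 and 229 in the spheres, 4.54-fold lower. BAMBI, a decoy receptor, was 4.25-fold lower, the ligand gene BMP4 3.81-fold and the antagonist NOG 2.53-fold. SMAD6 and NOG were low in the spheres alone. ID4 was the other lower member, at low intensity. In the other direction SMAD9 was 5.23-fold higher from a low-intensity value of 49.4, and the ligand gene BMP6 4.35-fold higher, with 616 in untreated cells, 171 at day 3 and 744 in the spheres. BMPR1B, a type I receptor gene, was 3.71-fold higher and not past the filter, and BMP2 was higher at low intensity. ID3, whose protein blocks DNA binding by basic helix-loop-helix factors, read 13065 in untreated cells, 2627 at day 3 and 5689.8 in the spheres. ID1 read 14429 and 14169.7, so ID1, ID3 and ID4 differed in direction and size.

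Notch genes were divided as well, with 4 of 20 higher and 2 lower. HES4, a repressor of the Notch target family, read 420 in untreated cells, 398 at day 3 and 1731 in the spheres, 4.34-fold higher. JAG1, a ligand, was 2.45-fold higher at 4763 against 1945, and HEY1, a target that BMPs also induce, 2.08-fold higher. NOTCH1, a receptor, was 2.78-fold lower, from 1861 at day 3 to 670. DNER was 2.87-fold higher from a low-intensity value, and JAG2, a ligand, was lower and not past the filter. Hedgehog genes leaned one way, with 5 of 14 at least 2-fold lower and 0 higher, but 2 of the 5 passed the level filter. These were BOC, a co-receptor, 2.29-fold lower, and SUFU, which holds GLI factors inactive, 2.17-fold lower. GLI1, a target of the pathway, was 2.60-fold lower at low intensity, and BOC and SUFU were the 2 of the 5 past 2-fold after adding 64 to both intensities. CDON, a co-receptor, was also lower and not past the filter. Of 26 Wnt genes 2 were higher and 3 lower, beside 5.78% and 4.72% of all genes. The higher members were DKK1, at 3.95-fold, and the ligand gene WNT5B. The lower members were FRZB, a secreted Wnt antagonist, at 2.32-fold and not past the filter, SFRP1 and the receptor gene FZD1. Only 1 of these 3 passed the level filter.

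**Figure D5:**
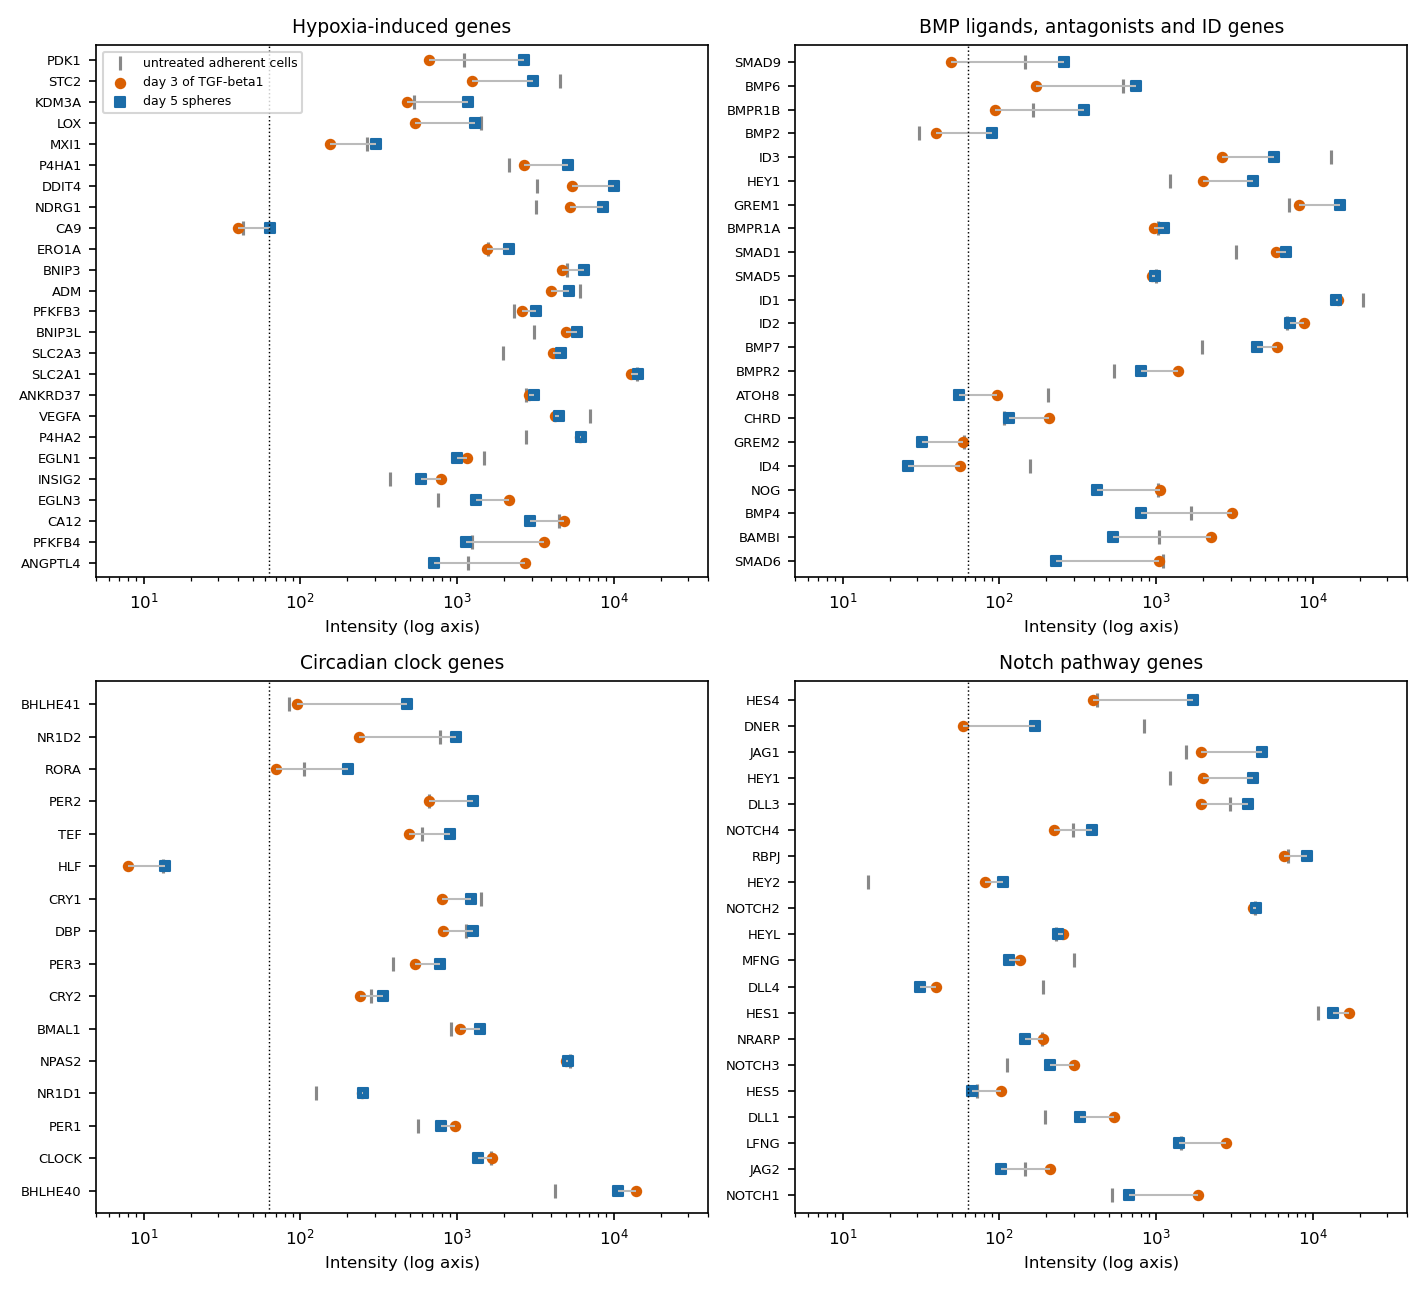
Intensities (log axis) of the measured members of 4 lists, ordered by their difference, with orange circles for day 3 of TGF-beta1, blue squares for day 5 spheres, grey ticks for untreated cells, 1 array each, and a dotted line at 63.4. Squares lie to the right of circles for 19 of 25 hypoxia genes and 13 of 16 clock genes, while BMP and Notch genes open out in both directions.

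Matrix genes lay on both sides of 0. COL1A1, a chain of type I collagen, read 1755 in untreated cells, 10781 at day 3 and 7408 in the spheres. Of 33 collagen chains and modifying enzymes 5 were lower (2 with the level filter) and 2 higher (1 with it). The shares of all genes were 4.72% lower and 5.78% higher. LOXL1, a lysyl oxidase relative that works on elastic fibres, was 2.73-fold lower and COL12A1, a fibril-associated collagen, 2.62-fold. LOXL4 was 6.47-fold lower but not past the level filter. COL4A5 was 2.51-fold lower and COL10A1, the collagen of hypertrophic cartilage, 3.70-fold higher, neither past the filter. COL10A1 had a low-intensity value of 25.8 at day 3, and its log2 difference went from 1.89 to 0.83 after adding 64 to both intensities. LOX, described above, was the other higher member. The fibronectin gene FN1 read 2719 and 5322, just under 2-fold, and with its brightest probe set alone the log2 difference was 0.39 instead of 0.97. Of 25 non-collagen matrix genes 1 was higher and 2 lower, with DPT the largest of the 3 and FBN1 and MGP not past the filter. That is 12% past 2-fold, near the 10.5% of all genes.

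Integrins, which bind cells to matrix, had 3 of 17 members lower (2 with the level filter) and 1 higher. Beside these stand 4.72% and 5.78% of all genes. ITGA7, a laminin receptor chain, read 650 in untreated cells, 4657 at day 3 and 914 in the spheres, 5.09-fold lower. ITGA11, a collagen receptor chain, read 390, 1869 and 408. Both were high at day 3 alone. ITGB8, which activates latent TGF-beta, was 3.25-fold lower and not past the filter. ITGA6, another laminin receptor chain, was 2.68-fold higher, at 2115 against 788, and ITGA5 differed by 0.80 in log2. Among 27 proteases and inhibitors 4 were higher and 2 lower. The collagenase gene MMP1 read 3952 in untreated cells, 632 at day 3 and 2214 in the spheres, 3.50-fold higher. MMP7 was 9.19-fold higher from a low-intensity value of 62.9, and MMP16 2.40-fold higher. ADAM12 was 2.45-fold higher and not past the filter. PLAT, tissue plasminogen activator, was 2.97-fold lower, and the inhibitor TIMP4 was the other lower member.

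Transcription factors of the epithelial to mesenchymal transition differed in direction. SNAI1 read 1994 at day 3 and 874 in the spheres, 2.28-fold lower, and SNAI2 read 4618 and 8812, just under 2-fold higher. ZEB1, a repressor of epithelial genes, read 2407 in untreated cells, 2180.0 at day 3 and 6009 in the spheres, 2.76-fold higher. Of the 15 members 2 were higher and 2 lower, THY1 lying at the 2-fold limit on the lower side and FAP, at low intensity, 3.86-fold higher. PDGFRB, a growth factor receptor, differed by -0.92 in log2. Cell junction genes were also split, 3 higher and 3 lower of 23, all past the level filter. CDH3, the P-cadherin gene, read 188 in untreated cells, 390 at day 3 and 2713 in the spheres, 6.96-fold higher. The desmosome genes DSP and DSC2 were 4.04-fold and 3.89-fold higher. For CDH3 and DSC2 the spheres alone were high, and for CDH3 and DSP the order from low to high was untreated, day 3, spheres. JUP, which encodes plakoglobin of the same junctions, was 2.48-fold lower, PKP3, a plakophilin gene, 2.11-fold lower and GJB2, a connexin gene, 2.52-fold lower. CLDN4, a tight junction gene, was not past 2-fold.

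Of 20 cancer stem cell markers, 5 were lower, all past the level filter, and 3 higher, 2 past it. Besides DCLK1 and ITGA6, KIT was higher at low intensity. CXCR4, a chemokine receptor gene, read 891 in untreated cells, 2431 at day 3 and 575 in the spheres, 4.23-fold lower. ABCB1, a drug efflux pump gene, was 4.09-fold lower, the intermediate filament gene NES 2.29-fold, CD24 2.10-fold, and THY1 was the other. CD44 read 4148 and 4822. PROM1, ABCG2 and ALDH1A1 did not pass the level filter or 2-fold. Pluripotency genes had 2 of 17 lower and 0 higher, namely SALL4, 4.10-fold lower, and KLF4. SOX2 read 2349.5 and 2156 and MYC 2394 and 2582. POU5F1 and NANOG were low on both arrays, at 105 and 49.6 at day 3 and 80.5 and 46.8 in the spheres. The 0 of 17 members 2-fold higher stand beside 5.78% of all genes, which is too small a share to set the list apart. Only 6 of the 17 members passed the level filter.

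None of 18 osteoblast genes passed 2-fold, and SPP1, the osteopontin gene, read 6601 and 3489. Only 7 of the 18 passed the level filter. The count of 0 stands beside 10.5% of all genes past 2-fold, which is too small a share to set the list apart. Adipocyte markers went apart. FABP4 was higher as given above, while PPARG, the receptor that directs fat cell differentiation, read 2782 in untreated cells, 2133 at day 3 and 673 in the spheres, 3.17-fold lower. CEBPA, its partner, was 4.38-fold lower and not past the filter, and ADIPOQ, which defines mature fat cells, read 13.5 and 11.8. Endothelial markers had 3 of 12 lower and 0 higher, and 1 passed the filter, while ESAM and FLT1, the latter at low intensity on both arrays, did not. The member past it was PECAM1, with 65.6 in untreated cells, 944 at day 3 and 171 in the spheres, while CDH5 read 126 and 118 and VWF 30.8 and 17.8. Of 26 YAP and SRF targets 3 were higher and 0 lower, none of them past the level filter, namely TAGLN, ACTG2 and ANKRD1. That is 11.5% past 2-fold, near the 10.5% of all genes. ANKRD1, a nuclear cofactor that follows YAP activity, read 2674 in untreated cells, a low-intensity 17.0 at day 3 and 159 in the spheres.

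No mitosis gene and 1 DNA replication gene passed 2-fold. All members of both lists passed the level filter, where 9.46% of genes lay past 2-fold and fewer did among the brightest. Of 25 mitosis genes 19 were above 0, with a median of 0.20, and MKI67 read 845 and 874. Of 25 DNA replication genes GINS1, a helicase subunit gene, was 2.58-fold higher, and the list median was 0.03. Of 21 inhibitors of cyclin-dependent kinases and p53 targets, 2 were higher (1 with the level filter) and 0 lower. That is 9.52% past 2-fold, near the 10.5% of all genes. CDKN1B, the gene of the inhibitor p27, was 2.65-fold higher, at 71.4 and 189 and not past the filter, and its log2 difference was 0.90 after adding 64 to both intensities. GADD45B, a stress and TGF-beta response gene, was 2.55-fold higher, and the inhibitor gene CDKN1A read 4391 and 5014. VLDLR was 3.61-fold higher among amino acid and endoplasmic reticulum stress genes. FASN, the fatty acid synthase gene, was 2.50-fold lower and the drug and bile acid exporter gene ABCC3, on the NRF2 list, 9.13-fold lower, with 729 in untreated cells, 2754 at day 3 and 302 in the spheres. In bulk RNA of this kind a smaller number of cells with a transcript and less transcript per cell cannot be told apart.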

How the data were processed

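RNA from 3 cultures of MNNG/HOS was hybridised to 1 single-colour Cy3 array each. The deposited values are intensities on a linear scale that the authors obtained by RMA (version not stated), as the submitters' processing notes record. They were not normalised again. Differences are in log2 of these deposited intensities, as the mean over the probe sets of a symbol. Symbols came from the platform annotation (18188 probe sets) or from a match of accession to RefSeq (678), and 26167 probe sets stayed unnamed.

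With 1 array a group no test was made, and the number of arrays limits the precision. Genes were described at 2-fold where the brighter array reached 685. Named by rule were the 15 highest and 15 lowest differences, the 10 highest and lowest with both arrays bright, up to 5 members of a list described in detail and up to 2 of another list, and fixed marker genes. Other members (among them EGR2, KLF2, JUND, LOX, NOG, GDF11, TGFB3, CD24, PKP3 and RORA) were named after their values were seen. The comparison, its members and the 43 lists were chosen with earlier results of these data known. Promoter windows came from RefSeq (GRCh38.p14). The calculation was tested on simulated data in Python 3.11.15 with pandas 2.3.3 and numpy 2.4.6. Alternatives changed the level filter, probe set summary, normalisation, added intensity and fold limit.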

Additional observations from a re-analysis of the deposited data

How the results depend on the processing

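As reported, 403 genes were higher and 455 lower. Without a level filter the counts were 994 and 811, with the filter at the upper quartile 64 and 117, and with both arrays required to reach the lower quartile 694 and 673. At 1.5-fold they were 1087 and 1181, and at 3-fold 108 and 132. Under the brightest probe set, the median over probe sets, centring, quantile normalisation or 64 added to both intensities they ranged from 353 to 405 and from 401 to 486. The medians of the 43 lists moved by at most 0.20 in log2 with 64 added, 0.16 with the brightest probe set, 0.09 with the median over probe sets, 0.04 with quantile normalisation and 0.02 with centring, and under each of the brightest probe set, centring and quantile normalisation 1 list whose median lay within 0.1 of 0 turned sign. Of 133 genes named by rule and past 2-fold, 21 fell short of it with 64 added, 1 (NCAM1) with the brightest probe set and 0 under the other 3, and 0 turned sign. No paired analysis was possible because each group has 1 array, and for the same reason no replicate could be left out. Low signal over background limits the folds marked as low-intensity.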

Other observations

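Some gene families that are in none of the lists stood apart, and they were chosen after their values were seen. Their counts cover members past the level filter and stand beside 4.44% higher and 5.02% lower among all genes past it. HOXB genes, transcription factors of body axis position, held 4 of 8 members at least 2-fold lower in the spheres and 0 higher, with a median of -1.11. HOXB5 read 1775 in untreated cells, 1726 at day 3 and 426 in the spheres. HOXC10 read 2529, 2730.0 and 745 in the same order, and HOXC13 866, 928 and 245. In these 3 genes the spheres alone were low. No HOXA or HOXD member past the filter reached 2-fold. ZIC2, a zinc finger factor of neural development and the chromosomal neighbour of ZIC5, read 1013, 415 and 2549.

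All 6 gonadotropin beta genes past the filter were at least 2-fold higher. They are nearly identical in sequence and are not independent measurements. Of 210 zinc finger genes named ZNF and a number, 22 (10.5%) were higher and 6 (2.86%) lower, with a median of 0.23. APOL1, APOL2 and APOL4, neighbouring apolipoprotein L genes, were all lower.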
